A study of Mus musculus with 17 samples.

Results

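The 10 genes described here encode enzymes and a chaperone that modify and crosslink collagen: the lysyl oxidases Lox, Loxl1, Loxl2 and Loxl3, the prolyl 4-hydroxylase alpha subunits P4ha1, P4ha2 and P4ha3, the lysyl hydroxylases Plod1 and Plod2, and the collagen chaperone Serpinh1. They were chosen by name for these functions, with earlier results of these data known, and are 10 of the 31647 features in the count table. Their transcripts were counted in hearts of 17 male C57BL/6J wild-type mice, all young adults, by MACE-Seq, which sequences the 3' ends of polyadenylated transcripts and labels each molecule with an identifier. In 9 mice the left anterior descending coronary artery was permanently ligated and the infarct zone (IZ) was dissected 5 d after myocardial infarction (MI). The other 8 mice received the same anaesthesia, analgesia and surgery without ligation, and tissue of the left ventricle (LV) served as sham control. Each library came from 1 mouse, and a sham LV sample was not cut to match the region of the IZ.

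Collagen chains are modified in the endoplasmic reticulum before they leave the cell. Prolyl 4-hydroxylases hydroxylate proline so that the triple helix is stable at body temperature, lysyl hydroxylases hydroxylate lysine in the helix and in the telopeptides at its ends, and Serpinh1 (HSP47) binds the folded helix on its way to the Golgi. Outside the cell, copper-dependent lysyl oxidases oxidise lysine and hydroxylysine residues of collagen and elastin, which then react into the covalent crosslinks that give a scar its tensile strength.

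Libraries held 1237675 to 4738307 counts. Mitochondrially encoded transcripts took 22.9 to 32.4% of the counts in sham and 4.22 to 19.5% in the IZ. IZ replicate 1 held the 19.5%, while the other IZ libraries held 4.22 to 6.78%. The 7 cardiomyocyte markers summed to 48849 to 64562 CPM (counts scaled to library size) in sham and 1666 to 19939 CPM in the IZ, with replicate 1 again at 19939, and all 7 were lower in the IZ. The 6 myofibroblast markers rose, from a sum of 240 to 469 CPM in sham to 2484 to 4633 CPM in the IZ, and the 6 macrophage markers rose from 335 to 492 CPM to 1853 to 5072 CPM. Of these, Fap and Comp passed the filter on low counts in 0 of 8 sham libraries, Cthrc1 in 5 and the macrophage marker Fcgr1 in 1. They entered the test described below with the help of the IZ. Of the 7 fibroblast markers 5 were higher and 1, Gsn, was lower, and their sum lay at 1861 to 2881 CPM in sham and 1648 to 2355 CPM in the IZ. The part of these cell types in the values that follow was not tested, and in bulk tissue more cells of a type and more RNA per cell cannot be told apart.

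Of the 10 genes, 9 were upregulated in the IZ and 0 were downregulated (edgeR's quasi-likelihood test, Benjamini-Hochberg adjusted over 12301 genes at 0.05). Across all genes tested, 36.3% were called higher and 33.1% lower, so a rise by itself was frequent in this tissue. The sizes ranged from 0.62 on the log2 scale for Plod1 to 4.64 for Lox, with a median over the 10 genes of 2.64 beside 0.05 over all genes tested. For 8 genes every IZ library lay above every sham library, which held for 16.6% of the genes tested. The exceptions were Plod1, with 8 of 9 IZ libraries above all sham libraries, and P4ha2, with 1 of 9. All 10 genes entered the test, but P4ha3 passed the filter on low counts (4.01 CPM, taken on total counts before TMM scaling) in 0 of 8 sham libraries and Loxl3 in 6 of 8, so that both passed with the help of the group in which they were high. Without IZ replicate 1, which had the lowest level in the IZ for 9 of the 10 genes, the number of upregulated genes was again 9, against 35.8% of all genes.

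**Figure D1:**
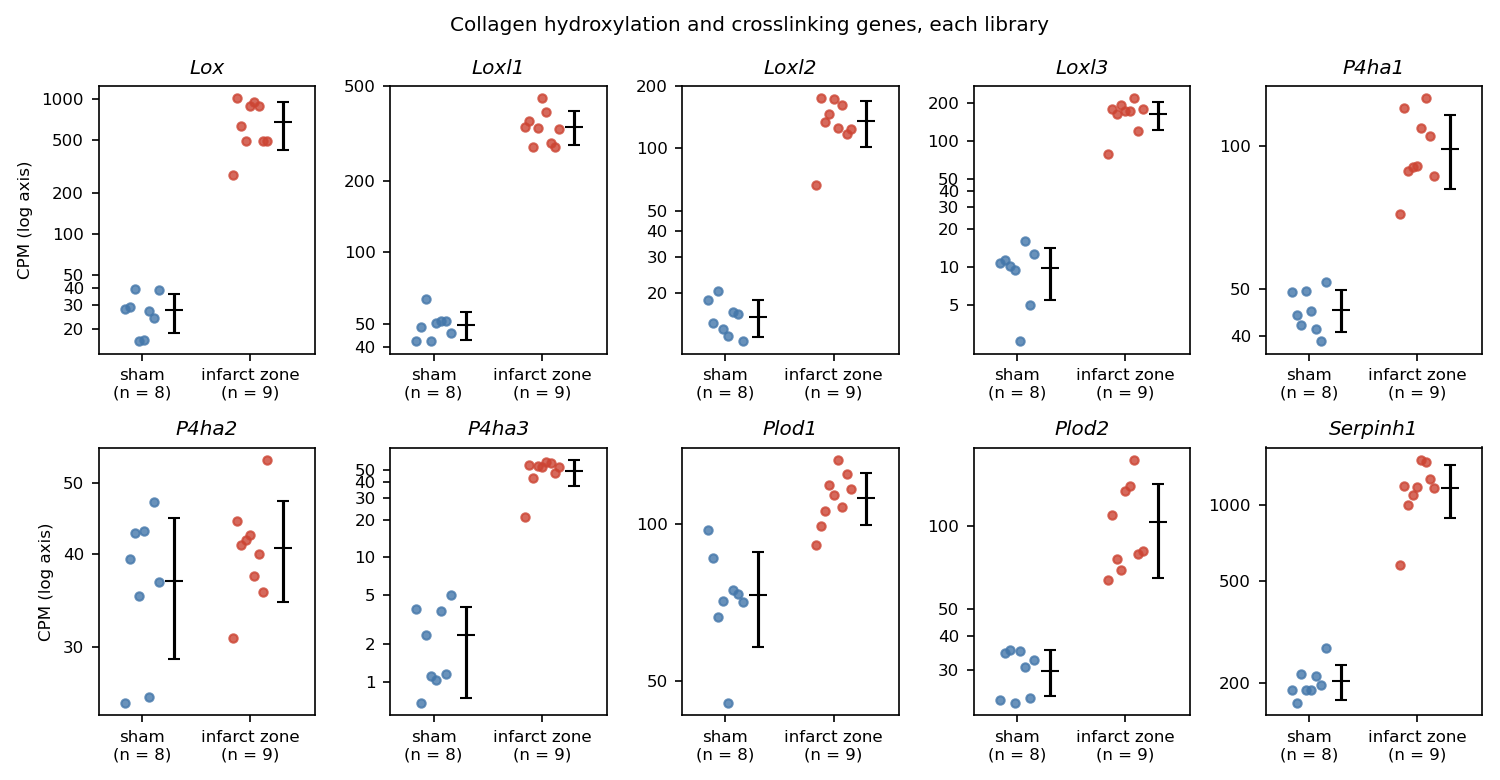
Level of each gene in CPM on a log axis in 8 sham and 9 IZ libraries, with 1 point per library and, beside the points, the group mean with its SD as a bar. The groups are apart for every gene except Plod1, where 1 IZ library lies within the sham range, and P4ha2, where most points overlap.

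Among the lysyl oxidases all 4 genes were upregulated. Lox, the founding enzyme of the family, had the largest change of the 10 genes. Its level was 16.2 CPM in the lowest sham library, 27.6 CPM at the median and 39.6 CPM in the highest, and 276, 626 and 1011 CPM in the IZ. The lowest IZ library thus lay well above the highest sham library. The group means of 27.4 ± 8.78 CPM (SD, n = 8) and 679 ± 261 CPM (SD, n = 9) differed by a factor of 24.8, and the log2 fold change was 4.64 ± 0.28 (SE, adjusted p = 2.65e-12, edgeR's quasi-likelihood test). Only 40 of the 12301 tested genes, or 0.325%, had a larger one. The IZ libraries were not uniform: replicates 2, 5, 6 and 7 held 889 to 1011 CPM and the other 5 held 276 to 626 CPM.

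Loxl3, a paralogue with scavenger receptor domains, followed with 2.59, 10.6 and 16.2 CPM at the lowest, median and highest sham library and 79.4, 175 and 220 CPM in the IZ. These groups did not overlap either. The log2 fold change was 4.11 ± 0.25 (SE, adjusted p = 3.41e-12, edgeR's quasi-likelihood test), although the sham level was close to the filter. Loxl2, which shares this domain structure, went from 11.7, 15 and 20.6 CPM to 66.3, 134 and 175 CPM, a log2 fold change of 3.15 ± 0.18 (SE). Loxl1, the member best known for its role in elastic fibres, had the highest sham level of the family at 42.1, 49.2 and 63.3 CPM. In the IZ it lay at 276, 332 and 445 CPM, with a log2 fold change of 2.77 ± 0.13 (SE). Its IZ mean was 337 ± 55.3 CPM (SD, n = 9), a coefficient of variation of 16.4%, against 24.8 to 38.5% for the other 3 genes of the family.

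Some counts of this family carry an annotation limit. The last exon of Loxl3 overlaps Htra2 on the opposite strand, and the use of strand in the counting was not stated. Htra2 rose by 0.52 ± 0.12 on the log2 scale (SE, from 31.4 ± 4.07 CPM, SD, n = 8, to 45.4 ± 8.45 CPM, SD, n = 9). One of the 2 annotated transcripts of Loxl2 ends in a stretch that resembles other genes. In it, 141 to 202 bases matched transcripts of 63 other genes at 95% identity or more. The position of the matches in those transcripts was not recorded, so part of the Loxl2 counts is uncertain. The genes lie on mm10 at chromosome 18, 52516067 to 52529867 (Lox, ENSMUSG00000024529), chromosome 9, 58287738 to 58313186 (Loxl1, ENSMUSG00000032334), chromosome 14, 69609068 to 69695834 (Loxl2, ENSMUSG00000034205) and chromosome 6, 83034173 to 83052562 (Loxl3, ENSMUSG00000000693).

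Because 3' end counting yields about 1 count per transcript whatever its length, the family's composition could be read as shares of its summed counts. Loxl1 was the leading lysyl oxidase in sham, with 48.9 ± 6.47% of the family's counts (SD, n = 8) against 26.4 ± 5.2% for Lox (SD, n = 8). In the IZ the order was reversed, with 49.9 ± 7.88% for Lox (SD, n = 9) and 26.9 ± 7.54% for Loxl1 (SD, n = 9). IZ replicate 1 was the closest to sham, with 36.4% for Lox, just above the highest sham share of 35.7%, and 44.5% for Loxl1, within the sham range of 41.8 to 61.4%. Loxl2 went from 15.2 ± 2.32% to 10.4 ± 1.5% and Loxl3 from 9.52 ± 3.82% to 12.7 ± 2.53%. The shares rest on 146 to 249 family counts in a sham library and 1952 to 12382 in an IZ library.

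The unequal change was tested on the log2 ratio of a pair of genes within each library, by an exact two-sided permutation test over all 24310 assignments of the group labels, with p values adjusted over 20 ratios. The ratio of Lox to Loxl1 was higher in the IZ by 1.81 (95% interval 1.26 to 2.35, adjusted p = 2.24e-04), in 8 of 9 IZ libraries above every sham library. The ratio of Lox to Loxl2 was higher by 1.48 (1.06 to 1.89, adjusted exact permutation p = 9.14e-05). Loxl3 rose more than Loxl1 and Loxl2, since the ratios of these to Loxl3 fell by 1.37 (interval -2.08 to -0.69) and by 1.04 (interval -1.61 to -0.48). Neither Lox against Loxl3 (0.44, interval -0.11 to 0.99, adjusted exact permutation p = 0.124) nor Loxl1 against Loxl2 (-0.33, interval -0.69 to 0.05, adjusted exact permutation p = 0.0971) passed the threshold. Both of these calls depended on single libraries: without sham replicate 5 the first ratio was 0.58 and passed, and without sham replicate 1 (-0.40) or IZ replicate 1 (-0.46) so did the second.

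**Figure D2:**
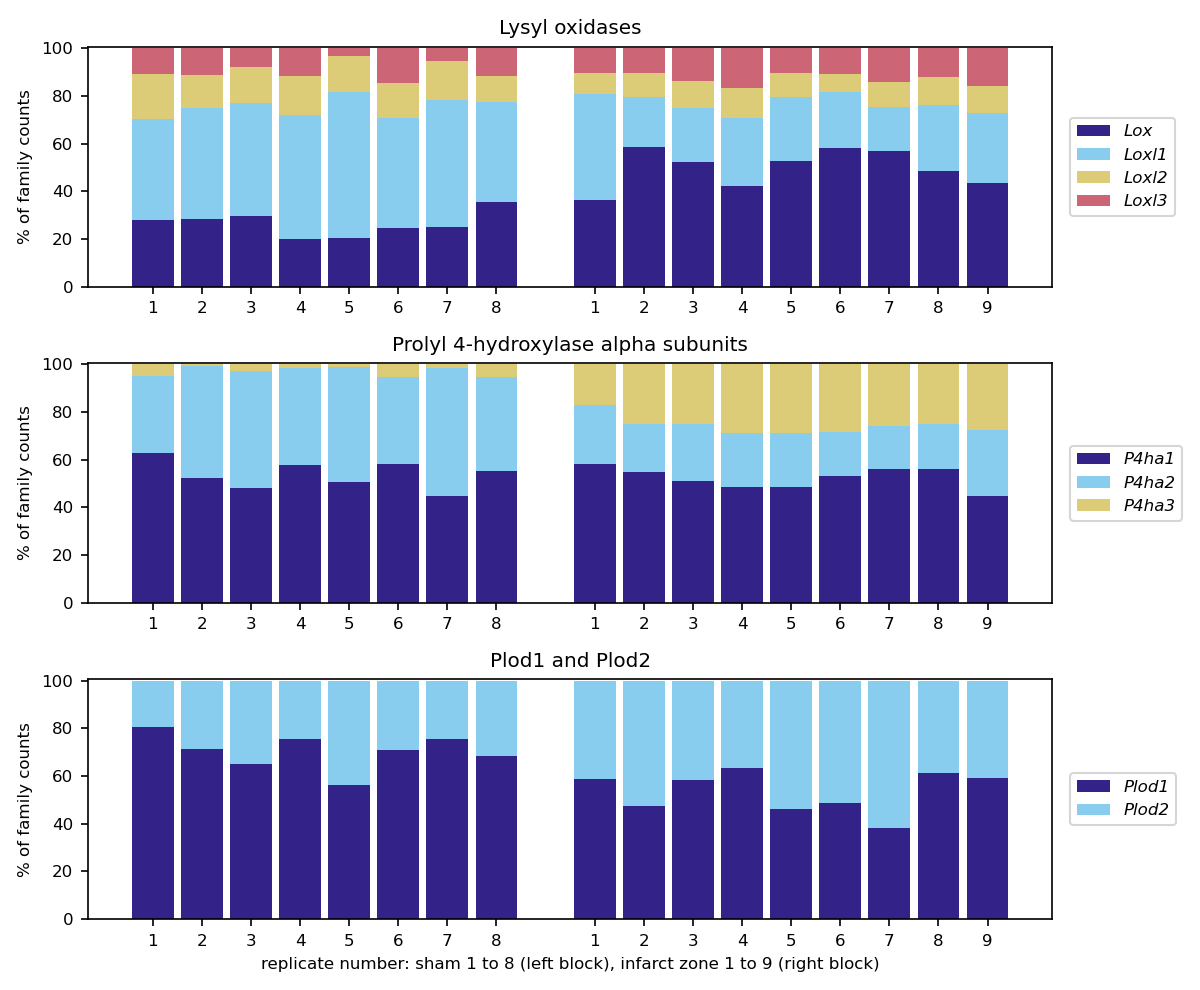
Stacked bars of the share of each gene in the summed counts of its family, in percent, with 1 bar per library (sham replicates 1 to 8 in the left block, IZ replicates 1 to 9 in the right block). The Lox segment grows from 26.4 to 49.9% on average while that of Loxl1 shrinks from 48.9 to 26.9%, P4ha3 goes from 2.85 to 25.7%, and Plod2 goes from 29.5 to 46.5%.

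The prolyl 4-hydroxylase alpha subunits carry the catalytic site of the enzyme and assemble with the shared beta subunit P4hb. Their 3 genes spanned nearly the whole range of changes, from P4ha3, which had the lowest sham level of the 10 genes and 1 of the largest increases, to P4ha2, which did not pass the test. P4ha1 is the major isoform of most tissues. It lay at 38.9, 44.6 and 51.7 CPM in the lowest, median and highest sham library and at 72.1, 90.6 and 126 CPM in the IZ, without overlap. Its log2 fold change was 1.12 ± 0.12 (SE, adjusted p = 1.18e-08, edgeR's quasi-likelihood test), equal to a 2.18-fold higher group mean.

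P4ha2 lay at 25.2, 38 and 47 CPM in sham and at 30.8, 41.2 and 53.7 CPM in the IZ. The 2 groups covered nearly the same range, and only IZ replicate 9 exceeded all sham libraries. The group means were 36.8 ± 7.97 CPM (SD, n = 8) and 40.8 ± 6.35 CPM (SD, n = 9), and the log2 fold change of 0.15 ± 0.13 (SE) missed the threshold (adjusted p = 0.337, edgeR's quasi-likelihood test). With total counts alone as library sizes, a scaling that moved the median of all genes from 0.05 to 1.14, P4ha2 stood at 1.25 and passed.

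P4ha3, the least widely expressed of the 3, had 1 to 9 counts in each sham library, or 0.679, 1.77 and 5 CPM at the lowest, median and highest. In the IZ it had 58 to 397 counts, or 21, 53.2 and 58.1 CPM. IZ replicate 1 was the lowest with 21 CPM, and the other 8 lay between 43.2 and 58.1 CPM. The log2 fold change was 4.39 ± 0.28 (SE, adjusted p = 7.23e-12, edgeR's quasi-likelihood test), with 65 tested genes above it. Its share of the alpha subunit counts rose from 2.85 ± 1.99% (SD, n = 8) to 25.7 ± 3.67% (SD, n = 9). P4ha2 fell from 43.4 ± 7.34% to 21.9 ± 3.32% in the same counts, and P4ha1 had 53.8 ± 5.97% in sham and 52.4 ± 4.42% in the IZ.

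All 3 ratios among these genes passed the exact permutation test. P4ha1 gained on P4ha2 by 0.94 on the log2 scale (interval 0.57 to 1.31, adjusted exact permutation p = 2.74e-04). Against P4ha3, P4ha1 fell by 3.26 (interval -3.92 to -2.61) and P4ha2 fell by 4.20 (interval -5.07 to -3.35), with the adjusted exact permutation p at 9.14e-05 for both, which follows from the smallest p the test can give, 4.11e-05. The size of both depends on the few P4ha3 counts in sham: with a prior count of 5 in place of 1 they were -2.57 and -3.49. The beta subunit P4hb rose more than P4ha1 and P4ha2 did, from 175 ± 17.9 CPM (SD, sham, n = 8) to 570 ± 85.7 CPM (SD, IZ, n = 9), a log2 fold change of 1.71 ± 0.13 (SE). The summed alpha subunit counts per count of P4hb were 0.41 to 0.55 in sham and 0.283 to 0.393 in the IZ, which did not overlap. P4hb also serves as protein disulfide isomerase outside this enzyme.

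The RefSeq promoters of the 3 alpha subunit genes are shown because the genes belong to one enzyme and changed so differently. Each runs from 250 bases before to 50 bases after the RefSeq start on GRCm38.p6, 5' to 3' on the gene's strand, and capitals mark the core letters of the hypoxia response element, ACGTG or GCGTG on either strand.
P4ha1 (chr10:59323046-59323345, plus strand): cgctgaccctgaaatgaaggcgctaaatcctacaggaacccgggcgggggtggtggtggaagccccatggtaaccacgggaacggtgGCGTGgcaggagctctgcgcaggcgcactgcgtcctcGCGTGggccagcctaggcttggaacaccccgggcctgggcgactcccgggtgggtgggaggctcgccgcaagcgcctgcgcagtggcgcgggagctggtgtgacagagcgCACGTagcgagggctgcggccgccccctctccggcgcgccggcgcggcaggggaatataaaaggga
P4ha2 (chr11:54100674-54100973, plus strand): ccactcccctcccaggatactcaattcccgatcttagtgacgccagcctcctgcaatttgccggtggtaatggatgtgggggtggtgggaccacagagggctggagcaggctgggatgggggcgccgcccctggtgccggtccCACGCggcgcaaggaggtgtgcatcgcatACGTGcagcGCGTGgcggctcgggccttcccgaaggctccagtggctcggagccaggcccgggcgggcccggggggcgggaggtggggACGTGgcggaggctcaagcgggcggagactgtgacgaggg
P4ha3 (chr7:100285270-100285569, plus strand): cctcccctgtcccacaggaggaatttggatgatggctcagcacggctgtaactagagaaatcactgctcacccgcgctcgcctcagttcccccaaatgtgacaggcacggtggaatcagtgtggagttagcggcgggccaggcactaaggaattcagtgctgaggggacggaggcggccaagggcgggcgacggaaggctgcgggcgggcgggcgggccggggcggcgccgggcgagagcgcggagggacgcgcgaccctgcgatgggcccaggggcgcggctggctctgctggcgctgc
Of the 10 genes, 5 were searched. Loxl1, Loxl2, Loxl3 and Plod2 had no entry among the RefSeq promoters used, and Lox was left out by choice. The core occurred 3 times in the window of P4ha1, 4 times in that of P4ha2 and 0 times in that of P4ha3, and 43.8% of all 32851 RefSeq promoters of this length held it. It also occurred 2 times in the window of Plod1 and 1 time in that of Serpinh1. The GC box GGGCGG, searched on both strands and present in 35.7% of promoters, occurred 5 times in the window of P4ha3, 4 times in that of P4ha2, 3 times in that of Plod1, 2 times in that of P4ha1 and 1 time in that of Serpinh1. These are matches of letters and no measure of binding. In the GRCm38 annotation used here, P4ha1 (ENSMUSG00000019916) spans chromosome 10, 59323296 to 59373304. P4ha2 (ENSMUSG00000018906) spans chromosome 11, 54100095 to 54131665, and P4ha3 (ENSMUSG00000051048) spans chromosome 7, 100285520 to 100319699. All 3 lie on the plus strand. The window of P4ha2 lies inside its span, past the first base, whereas those of P4ha1 and P4ha3 surround the first base of theirs. The P4ha2 matches thus concern a start other than the edge of the gene span. Starts of single annotated transcripts were not compared.

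Both lysyl hydroxylases were upregulated, and Plod2 more so than Plod1. Plod1 (chromosome 4, 147909753 to 147936767, ENSMUSG00000019055), which hydroxylates lysine in the helix, lay at 45.5, 72.5 and 97.4 CPM in the lowest, median and highest sham library and at 91.3, 114 and 133 CPM in the IZ. The ranges met at 1 library, IZ replicate 1, and the log2 fold change was the smallest of the 9 calls at 0.62 ± 0.12 (SE, adjusted p = 1.13e-04, edgeR's quasi-likelihood test). Among the genes tested, 29.1% had a larger one.

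Plod2 (chromosome 9, 92542223 to 92608428, ENSMUSG00000032374), which hydroxylates telopeptide lysines and so directs crosslinks toward the hydroxylysine-derived type, lay at 22.9, 31.8 and 35.6 CPM in sham. In the IZ it lay at 63.8, 81.4 and 174 CPM. No library overlapped, and the log2 fold change was 1.78 ± 0.20 (SE, adjusted p = 3.40e-08, edgeR's quasi-likelihood test). The spread within the IZ was wide: replicates 2, 5, 6 and 7 held 110 to 174 CPM and the other 5 held 63.8 to 81.4 CPM, and these were the same 4 libraries that held the most Lox.

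Of the summed Plod1 and Plod2 counts, Plod2 took 29.5 ± 7.42% in sham (SD, n = 8) and 46.5 ± 8.55% in the IZ (SD, n = 9). The log2 ratio of Plod1 to Plod2 fell by 1.07 (interval -1.60 to -0.55, adjusted exact permutation p = 9.32e-04). In 4 of 9 IZ libraries it lay below every sham library, so the shares of the groups overlapped in the others. These shares rest on 129 to 253 counts in a sham library and 395 to 1500 in an IZ library.

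Serpinh1 (chromosome 7, 99345376 to 99353239, ENSMUSG00000070436) was the most abundant of the 10 genes in both groups. It lay at 167, 192 and 274 CPM in the lowest, median and highest sham library and at 582, 1173 and 1500 CPM in the IZ. Every IZ library exceeded every sham library by more than the whole sham range. The log2 fold change was 2.51 ± 0.17 (SE, adjusted p = 2.49e-11, edgeR's quasi-likelihood test), and 1.08% of the tested genes had a larger mean CPM. Without IZ replicate 1, which held the 582 CPM, the log2 fold change was 2.56.

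In sham, mean CPM fell from Serpinh1 over Plod1, Loxl1, P4ha1, P4ha2, Plod2, Lox, Loxl2 and Loxl3 to P4ha3. Several neighbours in this order were not separated: Loxl1 exceeded P4ha1 in 5 of 8 libraries and Plod2 exceeded Lox in 4 of 8. In the IZ the order was Serpinh1, Lox, Loxl1, Loxl3, Loxl2, Plod1, Plod2, P4ha1, P4ha3 and P4ha2. Here Loxl2, Plod1, Plod2 and P4ha1 were not separated, since Loxl2 exceeded Plod1 in 6 of 9 libraries, Plod1 exceeded Plod2 in 5 of 9 and Plod2 exceeded P4ha1 in 3 of 9. Summed over the 10 genes, the level was 438 to 580 CPM in sham and 1621 to 3617 CPM in the IZ.

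To ask whether the modifying enzymes kept pace with 1 main substrate, each gene was set against Col1a1. It encodes the alpha 1 chain of type I collagen, the main collagen of the scar. Ratios to other substrates were not computed. The other substrates tested rose by 0.95 (Col5a3) to 4.48 (Col11a1) on the log2 scale, with elastin, Eln, at 3.25. Col1a1 rose from 352 ± 113 CPM (SD, n = 8) to 5641 ± 1151 CPM (SD, n = 9), a 16-fold higher mean (SE of the log2 fold change 0.24). The hydroxylases apart from P4ha3, the chaperone, Loxl1 and Loxl2 did not keep the factor of Col1a1. The ratio fell for 7 of the 10 genes, with all 9 IZ libraries below every sham library. Col1a1 rose more than Loxl2 did, and only 2.91% of the tested genes rose more than Loxl2. A lower ratio to Col1a1 was therefore to be found for most genes, and a fall by itself does not set these 7 apart. How many of all tested genes had a lower ratio, or groups without overlap, was not computed. P4ha2 transcripts per Col1a1 transcript fell by 3.87 on the log2 scale (interval -4.19 to -3.55), a 14.6-fold lower ratio. Those of Plod1 fell by 3.40 (interval -3.93 to -2.87), those of P4ha1 by 2.93 (interval -3.35 to -2.50) and those of Plod2 by 2.32 (interval -2.71 to -1.93). Serpinh1 fell by 1.56 (interval -1.90 to -1.21) and Loxl2 by 0.94 (interval -1.30 to -0.60), and for these 6 genes the adjusted exact permutation p was 9.14e-05. Loxl1 fell by 1.28 (interval -1.59 to -0.95, adjusted exact permutation p = 1.65e-04).

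Lox alone had a higher ratio to Col1a1 in the IZ, by 0.53 (interval 0.09 to 0.97, adjusted exact permutation p = 0.0265), with 4 of 9 IZ libraries above every sham library. This call was lost without sham replicate 5 (0.43, adjusted exact permutation p = 0.0528), without sham replicate 7 (0.46, adjusted exact permutation p = 0.0536) and without IZ replicate 6 (0.47, adjusted exact permutation p = 0.0507). Loxl3 (0.09, interval -0.62 to 0.82) and P4ha3 (0.33, interval -0.38 to 1.06) did not pass, and the intervals leave room for a change of either sign. For P4ha3 and Loxl3 the sham ratios rest on few counts.

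**Figure D3:**
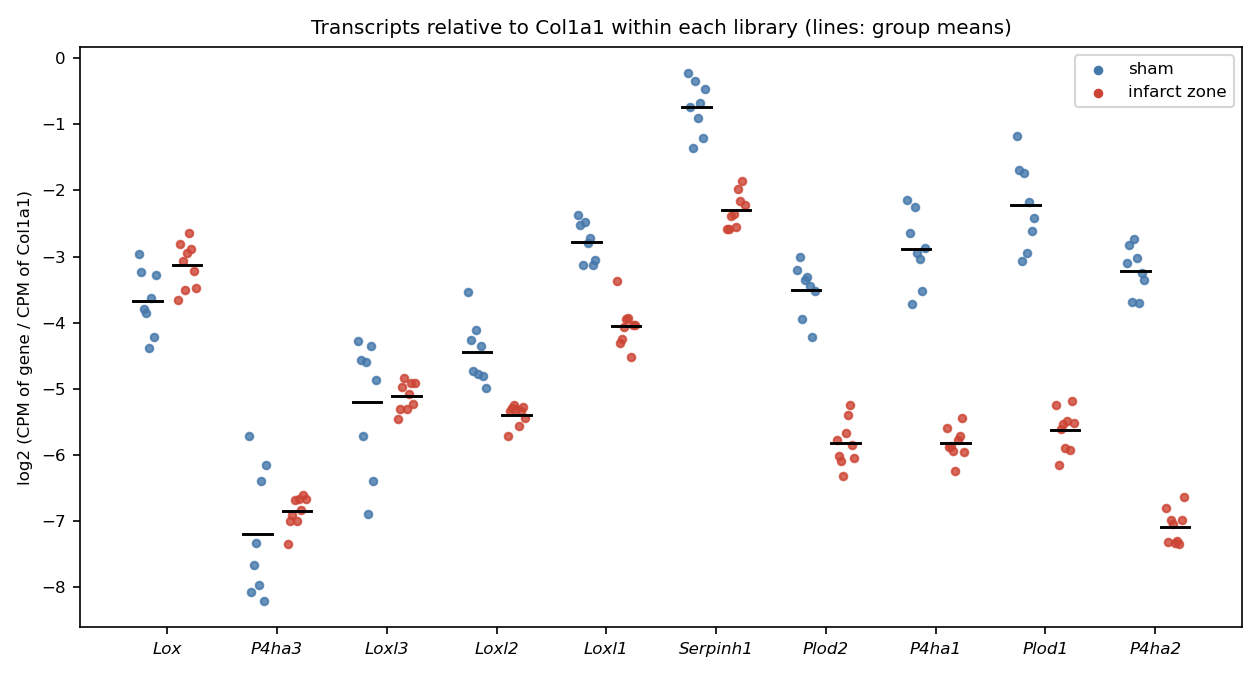
Log2 ratio of each gene to Col1a1 per library (CPM with a prior count of 1) in 8 sham and 9 IZ libraries, with sham in blue, IZ in red and the group mean as a line. For 7 genes the IZ points all lie below the sham points, with a difference of the means of -3.87 for P4ha2, and for Lox the IZ mean is higher by 0.53.

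Of 14 other genes of collagen hydroxylation and crosslinking, 11 passed the filter, 10 of them were called higher and 1 lower (edgeR's quasi-likelihood test). Their median log2 fold change was 1.85. These counts, and those of the lists that follow, stand beside 36.3% called higher and 33.1% lower among all genes tested. Fkbp10, a prolyl isomerase that works with Plod2, rose by 2.35 ± 0.17 (SE). The prolyl 3-hydroxylase P3h1 rose by 2.23 ± 0.19 (SE), and its complex partners Crtap and Ppib by 1.68 ± 0.20 and 1.94 ± 0.12 (SE). P3h3 rose by 2.21 ± 0.18 and the lysyl hydroxylase and glycosyltransferase Plod3 by 1.85 ± 0.14 (SE). The isomerase Fkbp14 rose by 1.86 ± 0.21 and the hydroxylysine galactosyltransferase Colgalt1 by 1.42 ± 0.15 (SE). Fkbp14 passed the filter in 5 of 8 sham libraries and Crtap in 7 of 8, so both entered the test with the help of the IZ. P3h4, which forms a complex with P3h3 and Plod1, stood at 0.30 ± 0.13 (SE), just within the threshold (adjusted p = 0.0486, edgeR's quasi-likelihood test), and lost its call in 13 of 24 alternative fits. Tmem38b, an ion channel of the endoplasmic reticulum, was the 1 gene called lower, at -0.92 ± 0.14 (SE), but it stood at 0.16 with total counts as library sizes. Loxl4, P3h2 and Colgalt2 were not tested. Loxl4, the remaining lysyl oxidase, had at most 1 count in each sham library and 2.83 ± 1.13 CPM in the IZ (SD, n = 9), at least 1.58-fold higher than the floor of 3 counts per sham library. P3h2 had a mean of 4.01 ± 1.43 CPM (SD, n = 8) for sham against 4.49 ± 3.01 CPM for the IZ (SD, n = 9), and Colgalt2 at 6.87 ± 4.21 and 2.18 ± 1.89 CPM.

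**Figure D4:**
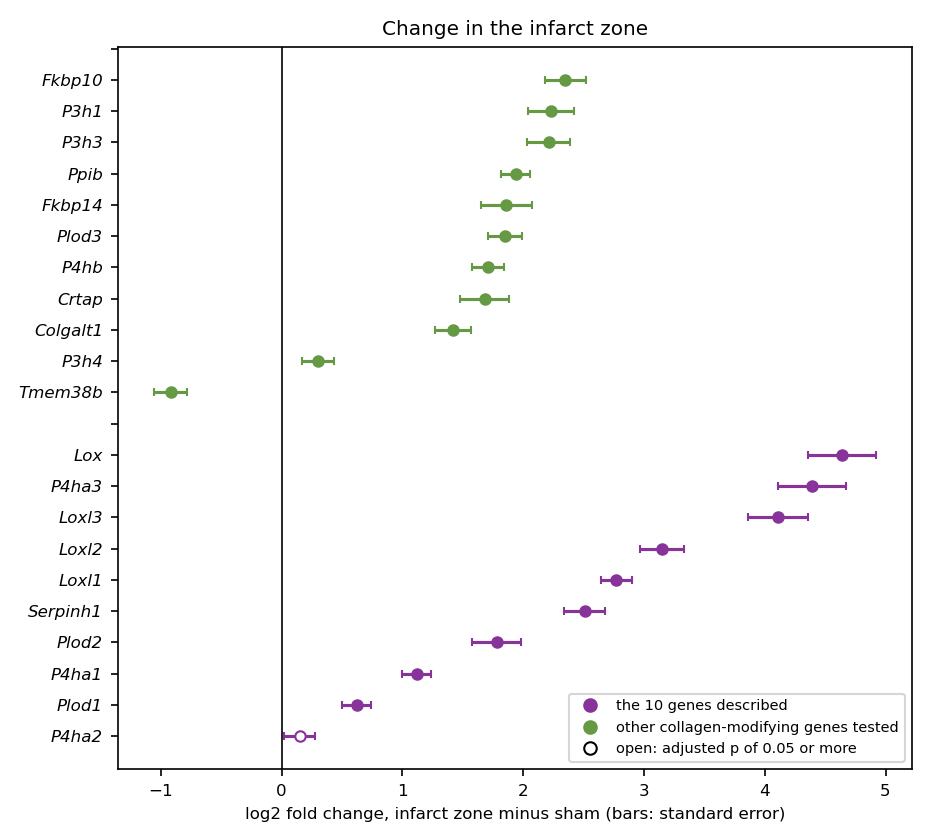
Log2 fold change of IZ against sham with its standard error (edgeR, 8 sham and 9 IZ libraries) for 11 other collagen-modifying genes in the upper block and the 10 genes described in the lower block, with an open circle where the adjusted p was not below 0.05. Lox, P4ha3, Loxl3, Loxl2, Loxl1 and Serpinh1 lie above the highest of the other genes, Fkbp10 at 2.35, Tmem38b lies at -0.92, and the open circle is P4ha2 at 0.15.

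Among the substrates, 9 of 10 fibrillar collagen and elastin genes were tested and all 9 rose, with a median log2 fold change of 3.79 (3.42 with Col2a1 at its lower bound against the floor), from 0.95 ± 0.25 for Col5a3 to 4.48 ± 0.35 for Col11a1 (SE). Col11a1, with 1 to 7 counts per sham library, and Col2a1 passed the filter in 0 of 8 sham libraries and entered the test through the IZ. Of 13 genes of procollagen export and propeptide removal, 9 were tested, 6 rose and 2 fell, with a median of 0.95. Adamts2, which removes the N-propeptide, rose by 2.85 ± 0.15 (SE), and Sar1b, a GTPase of the COPII coat, stood at -1.07 ± 0.15 (SE), or at 0.02 with total counts as library sizes.

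Copper supply formed 1 list, and ascorbate uptake was listed together with hydroxylases that act on other proteins. Of 7 genes of copper supply, 6 were tested, 3 rose and 1 fell, with a median of 0.44. Atp7a, the pump that loads copper onto secreted lysyl oxidases, rose by 2.61 ± 0.43 (SE, from 1.74 ± 1.3 CPM, SD, n = 8, to 11 ± 6.05 CPM, SD, n = 9). It had 0 to 7 counts per sham library, passed the filter in 0 of 8 of them and entered the test through the IZ, so this size is uncertain. Cox17, a copper chaperone of mitochondrial cytochrome oxidase, fell by 1.91 on the log2 scale (SE 0.11). Of 8 genes of ascorbate uptake and of hydroxylases that act on other proteins, 7 were tested, 6 fell and 1 rose, with a median of -0.98. All 6 that fell were hydroxylases of other proteins, so these counts do not describe ascorbate supply. The oxygen sensor Egln1 fell by 2.44 (SE 0.22), and the ascorbate transporter Slc23a2 stood at 0.49 ± 0.19 (SE), a call that was lost in 5 alternative fits.

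Of 12 general chaperones of the endoplasmic reticulum, 11 rose and 0 fell, with a median of 1.08, from 0.05 ± 0.11 for Canx, which was not called, to 2.10 ± 0.27 for Sdf2l1 (SE). Sdf2l1 passed the filter in 4 of 8 sham libraries, and Creld2, also among the 11, in 7 of 8. Both entered the test with the help of the IZ. Of 4 transglutaminases, which form a different kind of crosslink, 2 were tested. Tgm2 rose by 0.56 ± 0.11 (SE), and F13a1, at 0.06 ± 0.20 (SE), was not called. Of 12 genes induced by hypoxia, 11 were tested, 3 rose and 5 fell, with a median of -0.43. Among all genes tested, 36.3% were called higher and 33.1% lower. Vegfa fell by 2.73 (SE 0.24), and Pfkfb3 rose by 1.08 ± 0.18 (SE). Slc2a1 and Ero1l, which also rose, each passed the filter in 7 of 8 sham libraries.

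The 9 IZ libraries were used to ask whether the genes varied with Col1a1 within infarcted tissue, in log2 CPM, with exact two-sided permutation tests over 362880 pairings and adjustment over 10 genes. Pearson's r passed for 7 of the 10 genes and Spearman's rho for 1, Loxl2. How many of all tested genes would pass was not computed, so these counts do not set the 10 genes apart. The closest relation was that of Loxl2 (r = 0.95, exact p = 3.33e-04, adjusted p = 0.00333, rho = 0.92, adjusted p = 0.0131), followed by that of Lox (r = 0.93, exact p = 9.15e-04, adjusted p = 0.00457, rho = 0.80, adjusted p = 0.0574). Loxl3 (r = 0.88), P4ha3 (0.86), Serpinh1 (0.76), Plod2 (0.75) and P4ha1 (0.70) passed with an adjusted exact p of 0.0112 to 0.0477. P4ha2 (0.62), Loxl1 (0.36) and Plod1 (0.26) did not. Without replicates 1 and 2, which lay farthest from the median of Col1a1, none of the 10 passed (r from -0.27 to 0.85, smallest adjusted exact permutation p = 0.142, with 3 at an unadjusted p under 0.05). Among the 7 called genes r remained at 0.80 for Plod2, 0.85 for Loxl2 and 0.79 for Lox, and dropped to 0.24 for P4ha1 and 0.35 for Serpinh1. The 2 quantities share the library scaling.

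**Figure D5:**
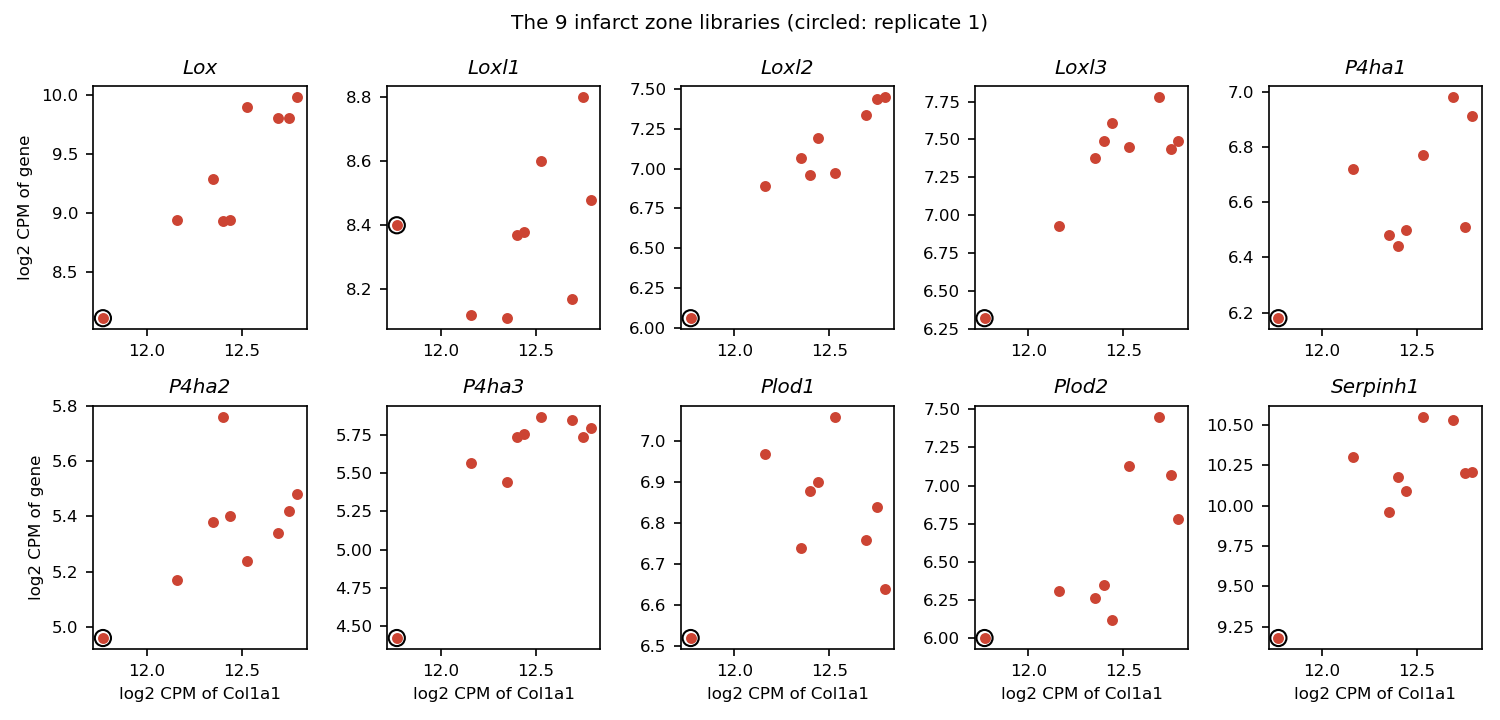
Log2 CPM of each gene against log2 CPM of Col1a1 in the 9 IZ libraries, with 1 point per library and replicate 1 circled. Replicate 1 lies at the lower left in every panel except that of Loxl1, and Loxl2 and Lox follow Col1a1 most closely (r of 0.95 and 0.93).

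IZ replicate 1 held more cardiomyocyte and mitochondrial RNA than the other IZ libraries and less of most of the 10 genes. Against the mitochondrial share, Pearson's r was negative for 9 genes and passed for 5, Lox, Loxl3, P4ha1, P4ha3 and Serpinh1 (r of -0.76, -0.88, -0.72, -0.97 and -0.91, each with an adjusted exact permutation p of 0.0305), and Spearman's rho passed for 0. The share of all tested genes with a negative or passing r was not computed, so these counts alone show no trait of these genes. Loxl1 stood apart with r = 0.05, and its level in replicate 1, 338 CPM, lay close to the IZ mean. Without replicates 1 and 6 none of the 10 relations passed (r from -0.71 to 0.53, smallest adjusted exact permutation p = 0.606, and 0 at an unadjusted p under 0.05). Among the 5 called genes r was -0.71 for P4ha1, close to its value over all 9 libraries, and -0.30 to -0.52 for the other 4.

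Among the 10 genes themselves, log2 CPM over the 9 IZ libraries correlated most for P4ha3 with Serpinh1 (r = 0.94) and for Loxl3 with P4ha3 (r = 0.91), while Loxl1 had r of -0.12 to 0.33 with the other 9. Of 8611 other genes with a symbol and a mean of at least 10 CPM, those most like the standardised mean of the 10 genes over the 9 IZ libraries were Fam149a (r = 0.977), Rcn3, a calcium-binding protein of the endoplasmic reticulum (0.974), the collagen genes Col5a1 (0.971) and Col12a1 (0.963), and Klhl5 (0.961), and 47 genes reached 0.9. Over all 17 libraries, where the difference between the groups enters, they were Rcn1 (0.994), Col5a1 (0.993), the fibronectin gene Fn1 (0.993), Col1a2 (0.992) and the protease gene Ctss (0.991), and 1127 genes reached 0.9. For single genes over the 9 IZ libraries, Serpinh1 was nearest to Pdia3, a disulfide isomerase (r = 0.992), and P4ha3 to S1pr2 (0.985), then Lox to Plcb3 (0.980), P4ha1 to Rnf145 (0.978), Loxl3 to Parp2 (0.973), Plod2 to Arhgap31 (0.972), P4ha2 to Tmem19 (0.969), Loxl2 to Specc1 (0.962), Loxl1 to Efna5 (0.942) and Plod1 to Sdf2 (0.921). These are the highest of 8611 correlations each over few points that share library scaling and replicate 1, and they carry no test.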

How the data were processed

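RNA from 8 sham LV and 9 IZ samples was sequenced by MACE-Seq with molecular identifiers for removal of PCR duplicates. The authors trimmed reads with Cutadapt, mapped them to mm10 and counted transcripts with HTSeq; the submitters' processing notes also list bcl2fastq, Bowtie2 and DESeq2. The annotation release, strand setting and treatment of reads with several locations are not given in the sources used here. The deposited values are raw counts per gene, with no normalization, in 17 columns, all used. Of 31647 features, 31521 matched a symbol in the GRCm38 annotation, and 35 merged features of overlapping genes were kept under their merged names.

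The count test was that of edgeR 4.0.16, run in R 4.3.3 (filterByExpr with a minimum of 10 counts, TMM factors 0.613 to 1.54, two-sided quasi-likelihood F-test without covariates, Benjamini-Hochberg threshold 0.05). CPM use TMM-scaled library sizes, and log2 CPM a prior count of 1. Standard errors were derived from the F statistic. Between libraries, counts differed by 2.41 to 252 times the sampling variance, so none was a copy of another. Floors cover counting error only. Intervals of ratios invert the exact permutation test. The last 500 bases of each transcript of the 10 genes were compared with whole transcripts by BLAST 2.17.0 (at least 100 bases at 95% identity). Python 3.11.15, NumPy 2.4.6, pandas 2.3.3, SciPy 1.17.1 and Matplotlib 3.10.9 were used. The count test was also run on simulated counts, with 200 of 12301 genes changed by 1 on the log2 scale, up or down. It called 78.5% of the changed genes, and 7.1% of its calls were unchanged genes. Far fewer genes changed there than in these data, so the run does not check the scaling used here.

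The 10 genes and all lists were chosen with earlier results of these data known. Named were all 10 genes, all other collagen hydroxylation and crosslinking genes, the highest and lowest member of each other list, and the genes nearest in pattern. Htra2, P4hb as denominator, Col2a1, Creld2, Slc2a1, Ero1l, Fap, Comp, Cthrc1 and Fcgr1 were named for a limit or a ratio. Of the marker lists, 6 endothelial markers summed to 446 to 882 CPM in sham and 334 to 543 CPM in the IZ, 6 mural markers to 468 to 704 and 155 to 425 CPM, 5 neutrophil markers to 4.44 to 12.3 and 14.9 to 210 CPM, and 7 lymphocyte markers to 0 to 3.68 and 4.34 to 15 CPM. Alternatives were DESeq2 size factors within edgeR, total counts as library sizes, DESeq2 1.42.0 with its Wald test, testing without a filter or with a minimum mean of 50 counts, leaving out mitochondrially encoded features, a replicate block, the omission of each library in turn and, for ratios and relations, a prior count of 5, medians, CPM on total counts and the omission of 2 libraries.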

Additional observations from a re-analysis of the deposited data

Results flagged for a closer look

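Each of the 10 genes was examined in both groups for a library far from the others by Dixon's test at the 95% level, which chance passes in about 1 in 20 groups, and 3 of the 20 groups passed. Loxl1 was at 63.3 CPM in sham replicate 3, the highest sham library, with the next at 51.5 CPM (gap over range 0.561, critical value 0.526). P4ha3 was at 21 CPM in IZ replicate 1, the lowest IZ library, with the next at 43.2 CPM (0.598, critical value 0.493). Serpinh1 was at 274 CPM in sham replicate 8, the highest sham library, with the next at 216 CPM (0.542, critical value 0.526). None of the 3 reached the range of the other group. IZ replicate 1 was the library with 19.5% mitochondrial counts.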

How the results depend on the processing

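Of 240 alternative fold changes of the 10 genes, 239 kept their direction and their side of the threshold. The exception was P4ha2 with total counts as library sizes (1.25, adjusted p = 5.81e-08, edgeR's quasi-likelihood test). The number of genes called higher was 9 in every alternative fit except that scaling, where it was 10. The same scaling lowered the number of list genes called lower from 15 to 7 and moved Tmem38b to 0.16 and Sar1b to 0.02. F13a1, not called, changed sign with the replicate block (-0.01) and without sham replicates 6 and 8 (-0.03 and -0.01) or IZ replicate 3 (-0.05). When each library was left out in turn, list genes called higher numbered 42 to 45 and those called lower 14 or 15.

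The replicate numbers did not pair the samples (correlations of deviations -0.22 to 0.13, 1 of 8 over 0.1, and 1 of 8 numbers best with its own). With the replicate block, 9 genes were again called higher, and the ratio of Lox to Col1a1 (0.58) lost its call (adjusted exact permutation p = 0.0643). With a prior count of 5, the ratio of Lox to Loxl3 (0.59) passed and those of Loxl3 and P4ha3 to Col1a1 changed sign (-0.13 and -0.38). The Loxl3 ratio to Col1a1 was -0.35 by medians.

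Leaving out each library in turn gave log2 ratios of 0.33 to 0.58 for Lox to Loxl3, -0.46 to -0.27 for Loxl1 to Loxl2, 0.43 to 0.64 for Lox to Col1a1 and -0.15 to 0.23 for Loxl3 to Col1a1. Lox to Loxl3 passed without sham replicate 5, Loxl1 to Loxl2 passed without sham replicate 1 or IZ replicate 1, Lox to Col1a1 lost its call without sham replicate 5, sham replicate 7 or IZ replicate 6, and Loxl3 to Col1a1 changed sign without sham replicates 5 (-0.15) and 7 (-0.08). The other ratios kept their direction and their side of the threshold in these fits.

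Without the 2 libraries farthest from the median, the calls against Col1a1 were lost for Lox (0.79), Loxl2 (0.85), Loxl3 (0.73), P4ha1 (0.24), P4ha3 (0.66), Plod2 (0.80) and Serpinh1 (0.35), and Plod1 changed sign (-0.27). Against the mitochondrial share they were lost for Lox (-0.30), Loxl3 (-0.52), P4ha1 (-0.71), P4ha3 (-0.43) and Serpinh1 (-0.34), and P4ha2 (0.13) and Plod1 (0.53) changed sign. On total-count CPM, Loxl1 (0.75) and P4ha2 (0.85) passed against Col1a1, and against the mitochondrial share Loxl2 (-0.92), Plod1 (-0.93) and Plod2 (-0.69) passed and Loxl1 changed sign (-0.55). The causes were not tested. Depth limits P4ha3 and Loxl3 in sham most, where P4ha3 had 1 to 9 counts per library.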
